A study of Mus musculus with 6 samples.

Results

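The genes described here were the 128 genes on the array whose symbol is Ccdc followed by a number, with or without a letter after it, out of 21225 genes measured. The array held 134 rows with such a symbol, and 6 of them (Ccdc39, Ccdc40, Ccdc65, Ccdc103, Ccdc114 and Ccdc151), which encode known axoneme proteins, were left out by the rule and are used here for comparison only. The rule used the symbol alone and no measured value. All 128 symbols matched genes of RefSeq by Entrez Gene number.

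RNA from whole mouse lungs at embryonic day (E) 18.5 was hybridised to Affymetrix Mouse Gene 1.0 ST arrays, with 1 array for each of 3 RbpjkCNULL and 3 control lungs of the C57BL/6 strain. RbpjkCNULL lungs carried Shhcre/+ with RbpjkFlox/Flox, and the labels also call them Rbpjk-/-. Of the control lungs the labels say both that they were wildtype and that they carried Shh cre/+, so it cannot be told from the labels whether controls and RbpjkCNULL lungs share the Cre allele. Cre driven from the Shh locus acts in the epithelium and its descendants, while the RNA came from the whole lung, dissected at or below the carina, with its mesenchyme, vessels and blood cells. The labels do not say whether lungs of a group came from separate litters, so the p-values measure the spread between these arrays and no more, and precision is limited by how many arrays there are.

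Values are log2 expression levels, on which a difference of 1.00 is a doubling. Rbpj itself had levels of 6.26, 6.17 and 6.18 in RbpjkCNULL lungs, against 6.45, 6.50 and 6.74 in control lungs, a log2 fold change of -0.36 with a standard error (SE) of 0.09 that missed the threshold (adjusted p = 0.21). Which of its exons the array reads relative to the deleted part was not analysed here. The lung markers Sftpc, which encodes a surfactant protein, and Nkx2-1, which encodes a lung epithelial transcription factor, were high in all 6 lungs (12.81 to 12.93 for Sftpc and 8.58 to 8.85 for Nkx2-1). Array medians lay between 6.43 and 6.50, and the arrays correlated with each other at 0.988 to 0.997. Xist, the RNA that coats the inactive X chromosome of female cells, had levels of 4.28, 4.13 and 4.21 in RbpjkCNULL lungs and of 10.46, 10.68 and 4.91 in control lungs, so that control 3 alone among the controls was near the RbpjkCNULL lungs. The Y-linked gene Uty had levels of 8.40, 9.40 and 8.53 in RbpjkCNULL lungs and of 3.35, 3.31 and 8.65 in control lungs. Sex, as these genes show it, and genotype thus cannot be told apart in the other 5 lungs, and the genes that rose are also compared below with control 3 alone.

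A coiled coil is a rod made of alpha helices wound around each other, and the Ccdc symbol was given to genes for proteins predicted to contain one and otherwise little studied at the time. The genes are therefore no family by descent: their proteins range from parts of the ciliary axoneme and the centriole to RNA-binding, mitochondrial and secreted proteins. In the airway, motile cilia stand on multiciliated cells, which build many centrioles and then assemble axonemes of microtubule doublets, dynein arms and the linkers between doublets. Notch signalling, for which Rbpj is the DNA-binding partner, is known to favour secretory Clara cells over ciliated cells in the developing mouse airway.

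The promoters of 4 of the genes that rose are shown because these genes cover the largest rise and one match to each of the 3 motifs that were searched. Each window runs from 250 bases before to 50 after a start site of RefSeq (build GRCm38.p6), 5′ to 3′ on the strand of the gene. The capitals mark the motif match. Ccdc153 (chr9:44240427-44240726, plus strand) holds none. Ccdc180 (chr4:45890053-45890352, plus strand) holds an X-box, the motif of the RFX factors known to bind at genes of cilia. Ccdc170 (chr10:4482265-4482564, plus strand) holds the forkhead motif read on the opposite strand. Ccdc181 (chr1:164275348-164275647, plus strand) holds the core motif of Rbpj.
Ccdc153 promoter: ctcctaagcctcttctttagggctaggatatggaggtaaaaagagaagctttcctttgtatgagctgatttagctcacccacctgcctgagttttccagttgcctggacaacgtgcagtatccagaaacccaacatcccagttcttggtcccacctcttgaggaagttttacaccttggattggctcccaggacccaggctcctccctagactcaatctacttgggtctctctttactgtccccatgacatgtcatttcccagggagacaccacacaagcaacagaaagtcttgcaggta
Ccdc180 promoter: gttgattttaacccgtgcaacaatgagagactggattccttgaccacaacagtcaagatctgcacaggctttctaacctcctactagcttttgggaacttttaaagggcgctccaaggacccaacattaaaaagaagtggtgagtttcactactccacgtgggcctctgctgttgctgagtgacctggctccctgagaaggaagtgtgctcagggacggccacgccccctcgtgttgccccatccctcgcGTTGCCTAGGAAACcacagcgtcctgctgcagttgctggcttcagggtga
Ccdc170 promoter: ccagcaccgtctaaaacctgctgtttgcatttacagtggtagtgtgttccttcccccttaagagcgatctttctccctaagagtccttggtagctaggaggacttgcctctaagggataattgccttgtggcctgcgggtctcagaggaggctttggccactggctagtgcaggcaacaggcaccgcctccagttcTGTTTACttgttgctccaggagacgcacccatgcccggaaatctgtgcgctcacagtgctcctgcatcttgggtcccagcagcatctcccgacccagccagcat
Ccdc181 promoter: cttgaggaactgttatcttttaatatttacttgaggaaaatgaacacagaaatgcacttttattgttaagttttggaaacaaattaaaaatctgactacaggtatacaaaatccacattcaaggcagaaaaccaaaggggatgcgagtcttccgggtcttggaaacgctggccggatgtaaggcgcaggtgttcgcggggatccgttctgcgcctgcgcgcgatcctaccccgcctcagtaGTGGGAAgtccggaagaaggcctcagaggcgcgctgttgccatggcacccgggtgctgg

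In RbpjkCNULL lungs 15 of the 128 genes (11.7%) rose and 0 fell at an adjusted p under 0.05, adjusted over all genes of the array. Over all 21225 genes the share that rose was 1.16% (246 genes) and the share that fell was 0.113% (24 genes). The 15 genes that rose were Ccdc153, Ccdc146, Ccdc17, Ccdc170, Ccdc113, Ccdc162, Ccdc150, Ccdc180, Ccdc30, Ccdc189, Ccdc78, Ccdc81, Ccdc181, Ccdc87 and Ccdc187. Their log2 fold changes lay between 0.47 and 1.23 with a median of 0.88, and 6 of the 15 rose at least 2-fold, out of 72 such genes on the array. They made up 6.1% of all genes that rose. Before adjustment 27 of the 128 genes were higher and 4 lower with a p under 0.05. The median log2 fold change over the 128 genes was 0.00, against -0.05 over all genes.

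In 29 of the 128 genes (22.7%) every RbpjkCNULL lung was above every control lung, against 4.95% of all genes (1050 genes). In 12 of the 128 (9.38%) every RbpjkCNULL lung was below every control lung, against 9.28% of all genes (1969 genes). In the other 87 genes the groups overlapped. With quantile normalization of the arrays the numbers were 35 higher and 4 lower without overlap. The share over all genes under that scaling was not counted. The genes higher without overlap were the 15 that rose and 14 that did not pass the threshold: Ccdc60, Ccdc96, Ccdc148, Ccdc33, Ccdc191, Ccdc173, Ccdc121, Ccdc15, Ccdc68, Ccdc13, Ccdc24, Ccdc157, Ccdc57 and Ccdc3.

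**Figure D1:**
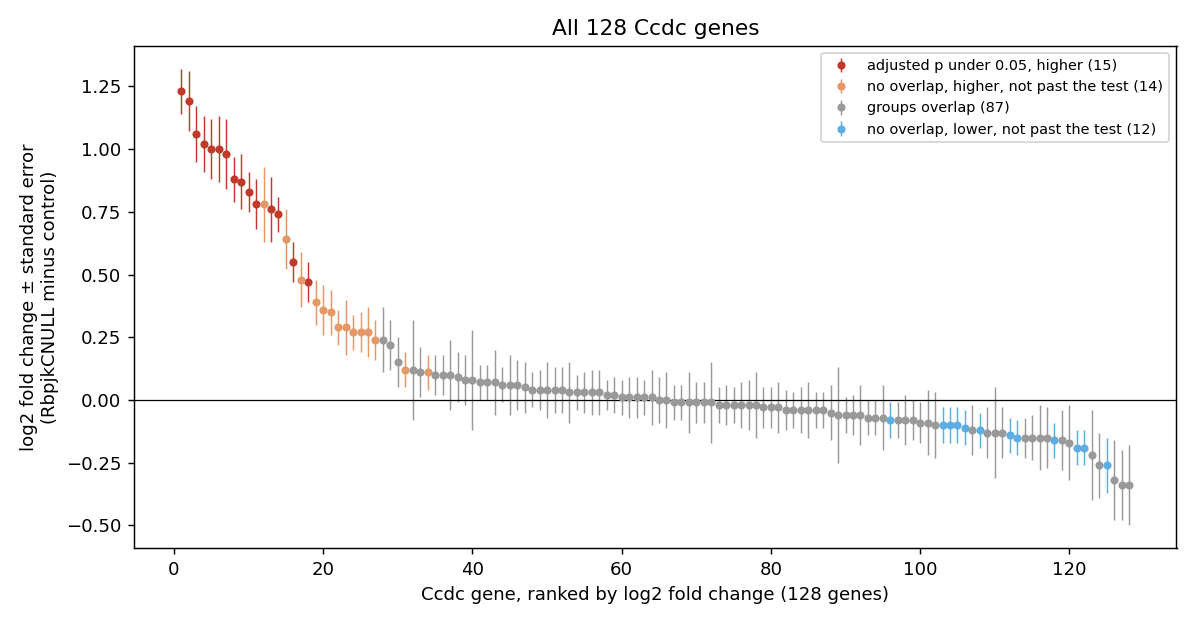
Log2 fold change (RbpjkCNULL minus control) of the 128 Ccdc genes from the highest at the left to the lowest at the right, with bars of 1 SE from the fit and colours for the 15 genes at an adjusted p under 0.05, the other genes without overlap of the groups, and the rest. The left end reaches 1.23 (Ccdc153), while the right end reaches -0.34 (Ccdc172), and 0 genes below the zero line pass the threshold.

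The genes that rose did so in every RbpjkCNULL lung. They were picked by the test on these same 6 lungs, so the medians below describe that choice and add no evidence. The median level of the 15 was 7.05, 7.06 and 7.04 in RbpjkCNULL lungs, against 6.11, 6.27 and 6.28 in control lungs. For the 113 genes not called the medians were 6.43, 6.55 and 6.62 in RbpjkCNULL lungs and 6.45, 6.50 and 6.49 in control lungs. The gap between the lowest RbpjkCNULL lung and the highest control lung ran from 0.27 (Ccdc187) to 1.08 (Ccdc153) among the 15. Within its group RbpjkCNULL 1 was the lowest lung in 9 of the 15 genes, and control 3 was the highest control lung in 10 of the 15.

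**Figure D2:**
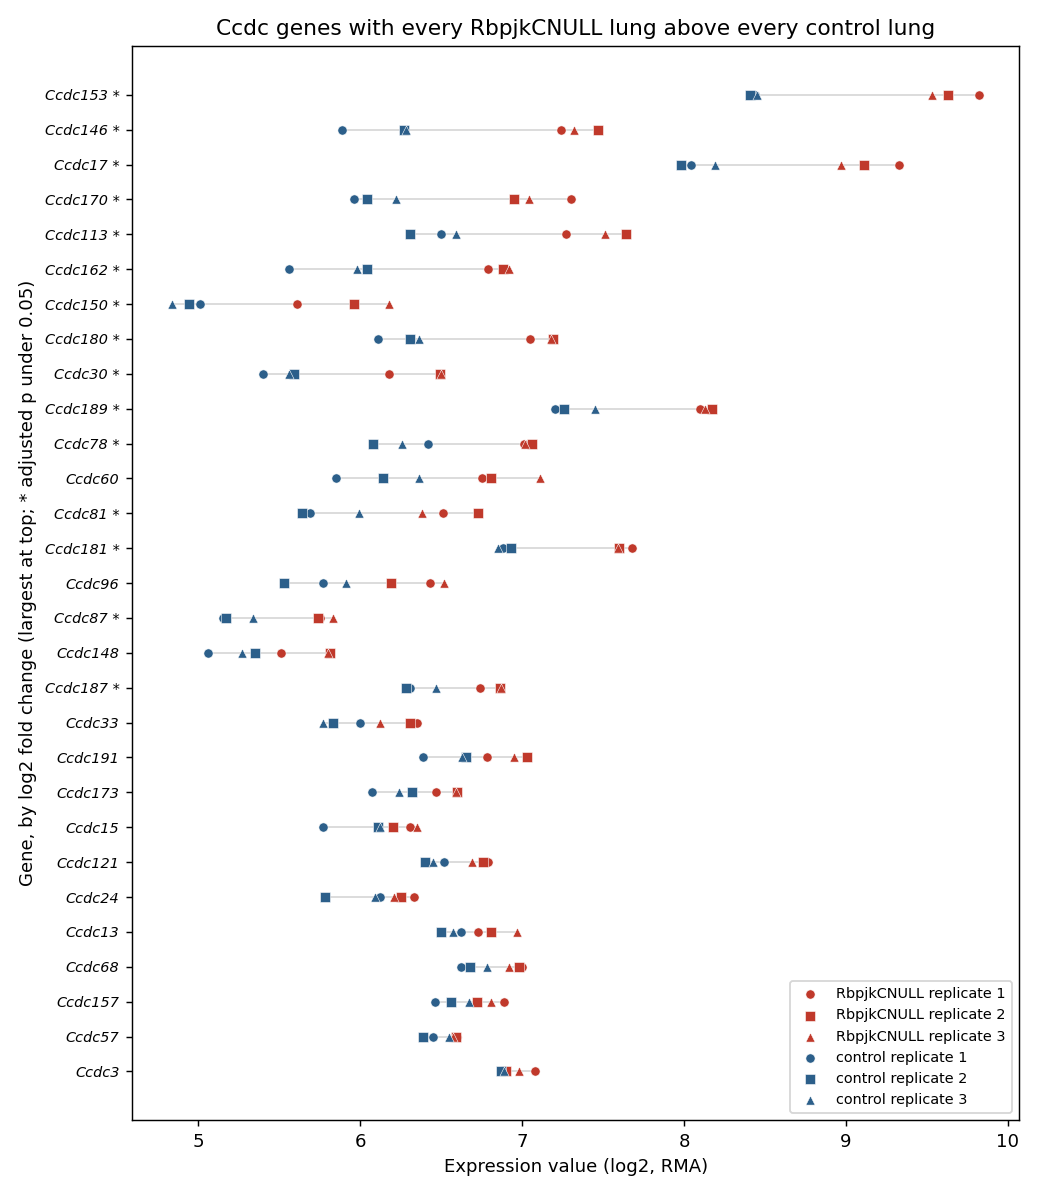
Expression level (log2) in each of the 3 RbpjkCNULL and 3 control lungs (symbol shape: lung number) for the 29 Ccdc genes higher without overlap, ordered by log2 fold change, with an asterisk at the 15 past the threshold. The groups lie furthest apart in Ccdc153, with a gap of 1.08 between the nearest lungs, and nearly touch in Ccdc3, with a gap of 0.01.

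Of the 19 genes placed with motile cilia and flagella, 10 rose, 14 were higher without overlap and 2 were lower without overlap, and the median log2 fold change was 0.74. Ccdc153, a subunit of the linker between axonemal doublets called the nexin-dynein regulatory complex, had levels of 9.82, 9.63 and 9.53 in RbpjkCNULL lungs, against 8.44, 8.41 and 8.45 in control lungs. The control lungs hardly varied (SD 0.02, n = 3), and RbpjkCNULL 1 was the highest of all lungs. This was a 2.35-fold rise (log2 fold change 1.23, SE 0.09, adjusted p = 0.00163). Ccdc113, an axonemal protein that also sits at centriolar satellites, had levels of 7.27, 7.64 and 7.51 in RbpjkCNULL lungs, against 6.50, 6.31 and 6.59 in control lungs. RbpjkCNULL 1 was the lowest of its group here, still 0.67 above the highest control. The rise was 2.01-fold (log2 fold change 1.00, SE 0.12, adjusted p = 0.00682).

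Ccdc96, the partner of Ccdc113 in the cilia of the ciliate Tetrahymena, had levels of 6.43, 6.19 and 6.52 in RbpjkCNULL lungs and of 5.77, 5.53 and 5.91 in control lungs. Its groups did not overlap, but the log2 fold change of 0.64 (SE 0.12) missed the threshold at an adjusted p of 0.0709, and passed it under 4 alternatives (adjusted p 0.0111 to 0.0365). Ccdc146, a centriolar and microtubule-associated protein that sperm flagella need in mice, had levels of 7.24, 7.47 and 7.32 in RbpjkCNULL lungs, against 5.89, 6.27 and 6.28 in control lungs. The lowest of these 6 levels was that of control 1. The rise was 2.28-fold (log2 fold change 1.19, SE 0.12, adjusted p = 0.00418). Ccdc181, a microtubule-binding protein of sperm flagella and motile cilia in mice, had levels of 7.68, 7.60 and 7.59 in RbpjkCNULL lungs, against 6.88, 6.93 and 6.85 in control lungs. Both groups were tight (SD 0.05 in RbpjkCNULL and 0.04 in control lungs, n = 3 each), and the rise of 1.67-fold had the second lowest adjusted p of the 15 (log2 fold change 0.74, SE 0.07, adjusted p = 0.00292).

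Ccdc78 acts before the axoneme is built, in the deuterosomes on which multiciliated cells multiply their centrioles. Its levels were 7.01, 7.06 and 7.02 in RbpjkCNULL lungs, against 6.42, 6.08 and 6.26 in control lungs. The RbpjkCNULL lungs varied less (SD 0.02) than the control lungs (SD 0.17, n = 3 each), for a 1.71-fold rise (log2 fold change 0.78, SE 0.10, adjusted p = 0.00886). Ccdc189, also known as a cilia and flagella associated protein, had levels of 8.10, 8.17 and 8.13 in RbpjkCNULL lungs, against 7.20, 7.26 and 7.45 in control lungs. The highest control, control 3, stayed 0.65 below the lowest RbpjkCNULL lung. The rise was 1.78-fold (log2 fold change 0.83, SE 0.08, adjusted p = 0.0041).

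Ccdc170, which associates with microtubules near the Golgi in human cells, had levels of 7.30, 6.95 and 7.04 in RbpjkCNULL lungs, against 5.96, 6.04 and 6.22 in control lungs. RbpjkCNULL 1 was the highest and control 1 the lowest, and the 2.03-fold rise passed the threshold (log2 fold change 1.02, SE 0.11, adjusted p = 0.0053). Ccdc17 had levels of 9.33, 9.11 and 8.97 in RbpjkCNULL lungs, against 8.04, 7.98 and 8.19 in control lungs. After Ccdc153 it had the highest level in RbpjkCNULL lungs among the 15, and it rose 2.09-fold (log2 fold change 1.06, SE 0.11, adjusted p = 0.0041). Ccdc30 had levels of 6.18, 6.49 and 6.50 in RbpjkCNULL lungs, against 5.40, 5.59 and 5.56 in control lungs. The lungs numbered 1 were the lowest of both groups, and the rise was 1.83-fold (log2 fold change 0.87, SE 0.11, adjusted p = 0.00908). Ccdc81 had levels of 6.51, 6.73 and 6.38 in RbpjkCNULL lungs, against 5.69, 5.64 and 5.99 in control lungs. Control 3 came within 0.39 of RbpjkCNULL 3, and the 1.70-fold rise lay closer to the threshold (log2 fold change 0.76, SE 0.13, adjusted p = 0.0347).

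The other 9 motile cilia genes did not pass the threshold. Ccdc33 (log2 fold change 0.39), Ccdc173 (0.35), a protein inside the microtubule doublets, and Ccdc13 (0.27), a centriolar satellite protein, were higher without overlap. Ccdc38, Ccdc42, Ccdc63 and Ccdc105, known mainly from sperm and grouped here after their values were seen, had control means under 5 and 0 of these 4 rose. Of them Ccdc42, which sperm flagella need in mice, had levels of 4.73, 4.56 and 4.69 in RbpjkCNULL lungs, against 5.14, 4.78 and 4.86 in control lungs, lower without overlap but not past the threshold (log2 fold change -0.26, SE 0.11, adjusted p = 0.55). Over the whole array 0.149% of the 5366 genes with a mean over all 6 lungs under 5 rose. Of the 128 Ccdc genes 21 had a mean over all 6 lungs under 5, and 0 of these rose. Ccdc150, with a control mean of 4.93, rose and is not among the 21, because its RbpjkCNULL levels enter the mean over all lungs. How much of levels this low is array background is not known here.

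**Figure D3:**
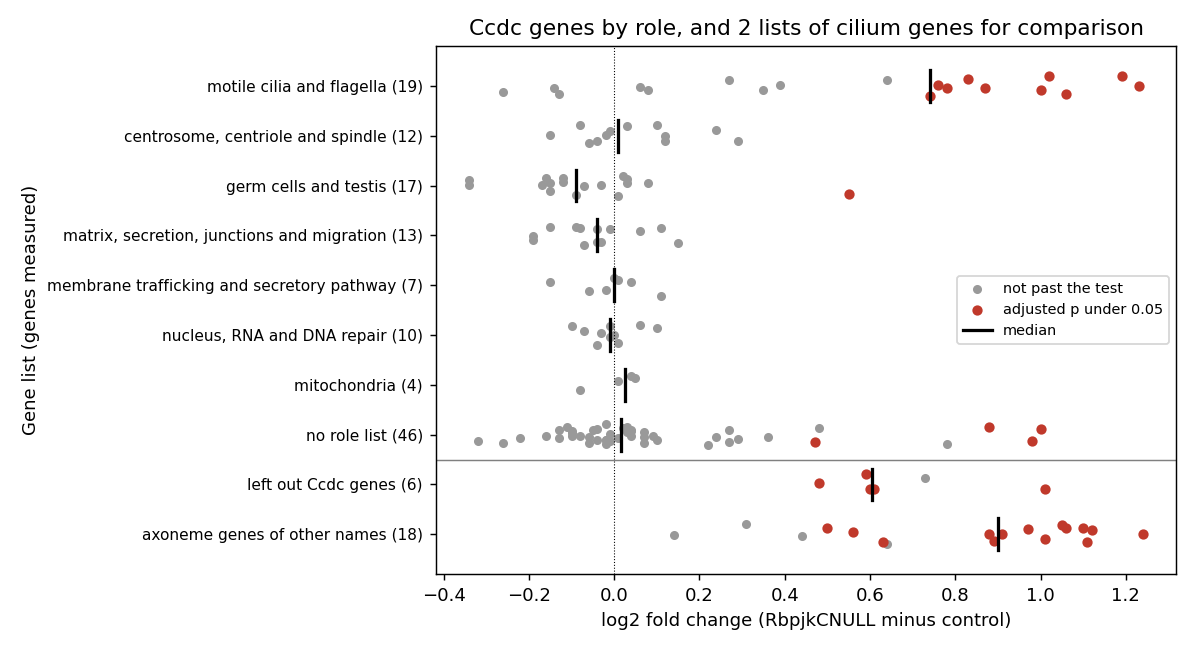
Log2 fold change (RbpjkCNULL minus control) of each Ccdc gene by role list, and below the line of the 6 Ccdc genes left out and of 18 axoneme genes of other names. Red points have an adjusted p under 0.05 and black bars are medians, which stand at 0.74 for motile cilia and flagella and between -0.09 and 0.02 for the other role lists.

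Among the 46 genes placed in no role list, 4 rose and 11 were higher without overlap. Ccdc162 had levels of 6.79, 6.88 and 6.92 in RbpjkCNULL lungs, against 5.56, 6.04 and 5.98 in control lungs. Control 1 stood below the other controls, and the rise was 2.00-fold (log2 fold change 1.00, SE 0.13, adjusted p = 0.0105). Ccdc150 had levels of 5.61, 5.96 and 6.18 in RbpjkCNULL lungs, against 5.01, 4.94 and 4.84 in control lungs. It had the lowest control mean of the 15 (4.93) and the widest spread among RbpjkCNULL lungs (SD 0.29, n = 3), and it rose 1.98-fold (log2 fold change 0.98, SE 0.14, adjusted p = 0.018). Ccdc180 had levels of 7.05, 7.19 and 7.18 in RbpjkCNULL lungs, against 6.11, 6.31 and 6.36 in control lungs. The groups were 0.68 apart at their nearest lungs and the rise was 1.84-fold (log2 fold change 0.88, SE 0.09, adjusted p = 0.00438).

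Ccdc187 was the gene just inside the threshold and Ccdc60 the one just outside it. Ccdc187 had levels of 6.74, 6.86 and 6.87 in RbpjkCNULL lungs, against 6.31, 6.28 and 6.47 in control lungs (log2 fold change 0.47, SE 0.08, adjusted p = 0.0453). Ccdc60 had levels of 6.75, 6.81 and 7.11 in RbpjkCNULL lungs, against 5.85, 6.14 and 6.36 in control lungs (log2 fold change 0.78, SE 0.15, adjusted p = 0.0676). The change of Ccdc60 was the greater, and its lungs varied more within each group. It passed under 5 alternatives (adjusted p 0.0105 to 0.0488). Ccdc148 had a log2 fold change of 0.48 (SE 0.11, adjusted p = 0.152) and passed under 2 (adjusted p 0.0306 and 0.0352). The 14 genes that were higher without overlap and not called had log2 fold changes of 0.11 to 0.78 and adjusted p-values of 0.0676 to 0.719, and 12 of them had an unadjusted p under 0.05.

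Of the 17 genes placed with germ cells and testis, 1 rose, and the median log2 fold change was -0.09 at a median control level of 4.51. The gene that rose, Ccdc87, which is needed for normal sperm acrosomes in mice, had levels of 5.75, 5.74 and 5.83 in RbpjkCNULL lungs, against 5.15, 5.17 and 5.34 in control lungs. Both groups were tight, and the rise was 1.47-fold (log2 fold change 0.55, SE 0.08, adjusted p = 0.0178). At the other end of the same list Ccdc172 and Ccdc182 had the lowest log2 fold changes of the 128 genes (both -0.34), with overlapping groups. The germ cell markers Ddx4, Dazl, Tnp1, Prm1, Prm2 and Sycp3 had 0 of 6 called. Their summed linear levels were 131 to 141 in RbpjkCNULL lungs and 144 to 156 in control lungs. Of the 6, 4 were lower without overlap, against 9.28% of all genes, with gaps between the nearest lungs of at most 0.09 (Prm2).

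In the remaining lists 0 genes rose and 0 fell, against 1.16% and 0.113% of all genes. For lists this small a count of 0 is near that background. Centriolar roles are named above also for Ccdc78, Ccdc146 and Ccdc113, which rose, and for Ccdc13, which was not called. These were placed with motile cilia, and the lists were chosen with earlier results of these data known. The median log2 fold change of the 12 centrosome, centriole and spindle genes was 0.01, with Ccdc15, a centriole protein, at 0.29 (SE 0.11, adjusted p = 0.508) and Ccdc124 at -0.15 at the 2 ends. The 10 genes of the nucleus, RNA and DNA repair had a median of -0.01 and a range of -0.10 to 0.10. Among these was Ccdc59, which in human cells binds the lung factor Nkx2-1, with levels of 7.54, 7.67 and 7.66 in RbpjkCNULL lungs and of 7.37, 7.68 and 7.65 in control lungs. The 4 mitochondrial genes (median 0.02) and the 7 genes of membrane trafficking (median 0.00) had 0 members without overlap in either direction. Over all genes 4.95% were higher and 9.28% lower without overlap, so 0 of so few genes is near that background. The mitochondrial genes were Ccdc58, Ccdc90b, Ccdc127 and Ccdc51, with log2 fold changes of 0.05, 0.04, 0.01 and -0.08. Among the trafficking genes Ccdc186, which acts in the making of dense core vesicles, had a log2 fold change of 0.11 (SE 0.10), and Ccdc115, which helps to assemble the proton pump of endosomes, one of -0.15 (SE 0.12).

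Ccdc47, an endoplasmic reticulum protein that helps insert membrane proteins, had the highest level of the 128 genes over all lungs. Its levels were 9.43, 9.46 and 9.53 in RbpjkCNULL lungs, against 9.43, 9.47 and 9.47 in control lungs (log2 fold change 0.01, SE 0.07). Ccdc80, a secreted matrix protein, had levels between 8.94 and 9.11 in RbpjkCNULL lungs, against 9.05 to 9.17 in control lungs (log2 fold change -0.08, SE 0.08). Both abundant genes overlapped between the groups. Across the 15 genes that rose, log2 fold change and control mean correlated at Pearson r = 0.37, a description over genes that share the same 6 arrays.

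For the 13 genes of matrix, secretion, junctions and migration the log2 fold changes had a median of -0.04, and 1 gene was higher and 2 were lower without overlap. The lower ones were Ccdc134, a secreted protein, and Ccdc88c, a regulator of G proteins and Wnt signalling also called Daple. Ccdc134 had levels of 6.99, 6.85 and 6.91 in RbpjkCNULL lungs, against 7.15, 7.11 and 7.07 in control lungs (log2 fold change -0.19, SE 0.07, adjusted p = 0.473). Ccdc88c had levels of 7.47, 7.45 and 7.53 in RbpjkCNULL lungs, against 7.73, 7.68 and 7.62 in control lungs (log2 fold change -0.19, SE 0.07, adjusted p = 0.46). With Ccdc42 these were the lower genes without overlap that had an unadjusted p under 0.05. The other 9 lower without overlap were Ccdc149, Ccdc124, Ccdc38, Ccdc54, Ccdc142, Ccdc137, Ccdc158, Ccdc7a and Ccdc28b. The 12 had log2 fold changes of -0.26 to -0.08 and adjusted p-values of 0.46 to 0.785, and their share of the 128 genes was near that of the whole array.

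**Figure D4:**
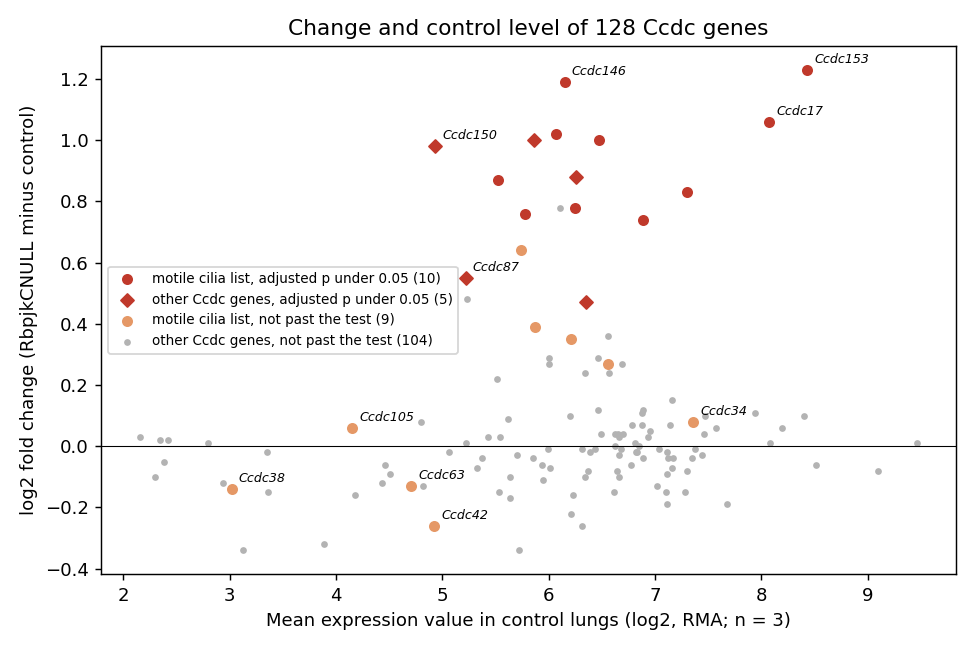
Log2 fold change (RbpjkCNULL minus control) of the 128 Ccdc genes against their mean level in the 3 control lungs (log2), coloured by motile cilia list and adjusted p, with some genes labelled after their values were seen. The 15 genes that rose have control means of 4.93 to 8.43, and the motile cilia genes with lower control means lie near or below 0.

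Of the 128 genes 69 had a log2 fold change within 0.1 of 0, where the median SE of the 128 genes was 0.09. Some genes varied more between lungs of a group than between the groups, and 4 of them, chosen after their values were seen, are given as examples. Ccdc14 had levels of 6.59, 7.22 and 7.21 in RbpjkCNULL lungs and of 6.60, 7.08 and 6.98 in control lungs. Ccdc34 had levels of 7.06, 7.64 and 7.62 in RbpjkCNULL lungs and of 7.06, 7.70 and 7.31 in control lungs. Ccdc18 had levels of 5.45, 6.14 and 6.05 in RbpjkCNULL lungs and of 5.74, 6.10 and 5.98 in control lungs. These 3 genes were lowest in the lungs numbered 1 of both groups. Ccdc12 ran the other way, with levels of 6.42, 6.27 and 6.20 in RbpjkCNULL lungs and of 6.69, 6.10 and 6.15 in control lungs. Markers of dividing cells had summed linear levels of 1200, 2070 and 2020 in RbpjkCNULL lungs and of 1930, 2490 and 1940 in control lungs, with 0 of 6 called, and their part in these values was not tested.

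**Figure D5:**
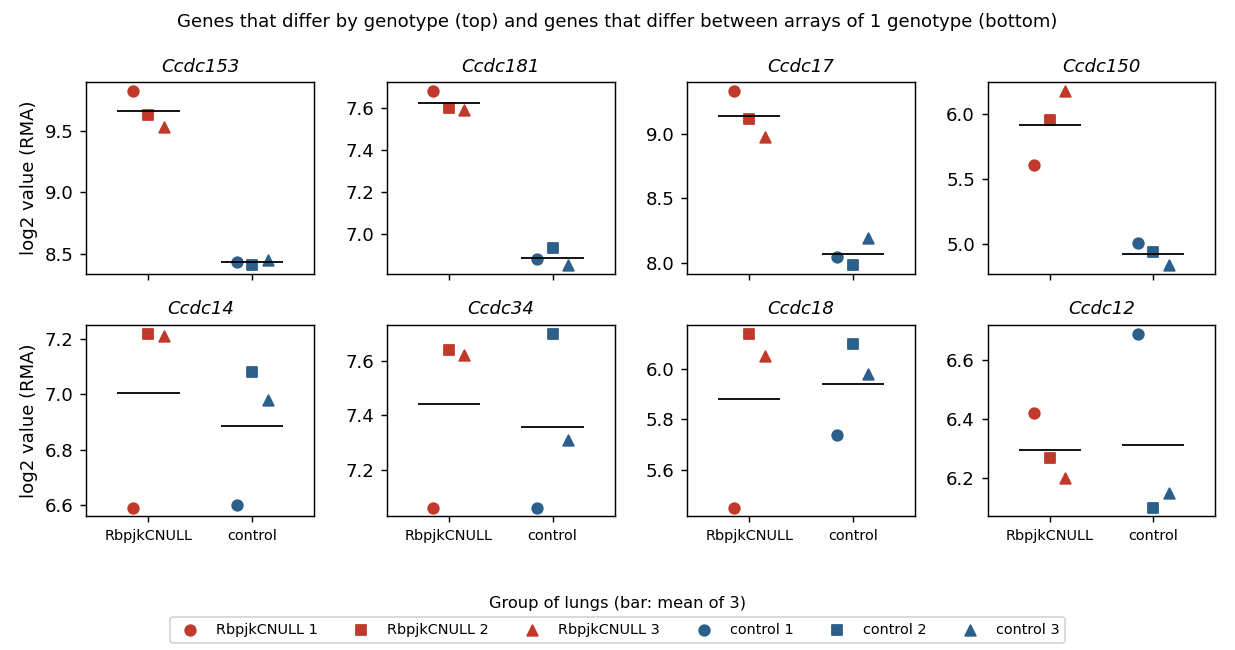
Expression level (log2) by lung in 4 Ccdc genes that rose (top row) and 4 that varied with lung number (bottom row), with RbpjkCNULL left of control, bars at the mean of 3 lungs and a scale of its own in each panel. In the top row the groups do not overlap, and in the bottom row the lungs numbered 1 lie at one end of both groups.

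The rises stood beside a change in cell type markers. Of 17 markers of ciliated cells 11 rose (median log2 fold change 0.97), with summed linear levels of 3130 to 3220 in RbpjkCNULL lungs and 1760 to 1940 in control lungs. The 6 not called were Mcidas (log2 fold change -0.20), Ccno (0.05), Rfx2 (0.23), Rfx3 (0.37), Myb (0.39) and Pifo (0.77). Of 10 markers of Clara cells 9 fell, with summed levels of 2300 to 3140 in RbpjkCNULL lungs and 6790 to 7660 in control lungs. The study picked 7 of these 10 on these same arrays for being lower, so their count is no independent evidence of direction. Of the other 3 markers 2 fell. The third, Aldh1a1, was higher without overlap but not past the threshold (log2 fold change 0.72, SE 0.14, adjusted p = 0.0805). In whole-lung RNA more cells of a type and more RNA per cell cannot be told apart, and the part of ciliated cell number in the rise of the Ccdc genes was not tested. Markers of neuroendocrine cells, both alveolar types, cartilage, smooth muscle, endothelium, leukocytes and erythroid cells had 0 called. Among them Lamp3 (log2 fold change 0.28) was higher without overlap, and Uchl1 (-0.28) and Cnn1 (-0.42) were lower. Over all genes 4.95% were higher and 9.28% lower without overlap. The 9 neuroendocrine markers had a median log2 fold change of -0.12, against -0.05 over all genes.

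The 6 Ccdc genes left out by the rule had 5 that rose and 6 higher without overlap (median 0.60 on the log2 scale). Ccdc39, which with Ccdc40 forms the ruler that sets the repeat along the axoneme, had levels of 7.85, 8.15 and 8.03 in RbpjkCNULL lungs, against 6.82, 7.07 and 7.11 in control lungs (log2 fold change 1.01, SE 0.11, adjusted p = 0.0053). Ccdc40 had a log2 fold change of 0.60 and Ccdc65, of the nexin-dynein regulatory complex, one of 0.61. Ccdc114 and Ccdc103, which attach dynein arms, had log2 fold changes of 0.59 and 0.48. Ccdc151, which also serves to dock dynein arms, had a log2 fold change of 0.73 and missed the threshold (adjusted p = 0.0596). Of 18 measured axoneme genes of other names 14 rose and 17 were higher without overlap, and their median was 0.90 on the log2 scale. Dnah5, Dnah9, Rsph1, Tekt1 and Tekt4 among them were also counted above as markers of ciliated cells.

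The 30 nearest measured genes on both sides of the 15 had log2 fold changes of -0.31 to 0.31, and 0 of them were called. Over the whole array 1.16% of genes rose, and with so few neighbours a count of 0 is near that background. Both neighbours of Ccdc146 had positive values, Gsap of 0.31 (SE 0.16) and Fgl2 of 0.28 (SE 0.13). Beside Ccdc180, Stra6l had a log2 fold change of -0.06 and Tdrd7 of 0.05.

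RefSeq promoter windows could be had for 102 of the 128 genes and for 11 of the 15 that rose, 15 windows in all. The X-box, the forkhead motif as GTAAACA and the Rbpj motif as GTGGGAA were each searched on both strands, and no match overlapped another in the windows of genes that rose. The X-box was in 1 of the 15 windows of genes that rose (6.67%), in 6 of 114 windows of the other Ccdc genes (5.26%), in 38 of 224 windows of all genes that rose (17.0%) and in 2.17% of all 32851 windows. The one match, printed above for Ccdc180, begins at position 1 of the transcript. The forkhead motif was in 2 of 15 windows (13.3%; Ccdc170 and Ccdc30), in 3 of 114 of the other Ccdc genes (2.63%), in 13 of 224 windows of all genes that rose (5.8%) and in 3.65% of all windows. It lay 54 bases upstream of the start in Ccdc170 and 205 upstream in Ccdc30. The Rbpj motif was in 2 of 15 windows (13.3%; Ccdc181 and a second start of Ccdc170), in 5 of 114 of the other Ccdc genes (4.39%), in 16 of 224 windows of all genes that rose (7.14%) and in 6.38% of all windows. In Ccdc181 it lay 9 bases upstream of the start. Ccdc153, with the largest rise, matched none of the 3 in its window.

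Control 3, the control lung with low Xist, was below every RbpjkCNULL lung in all 15 genes that rose. This follows from the lack of overlap in all 15, which were picked with control 3 among the lungs. It is therefore no separate check on sex, whose part was not tested. The RbpjkCNULL mean minus control 3 ran from 0.35 (Ccdc187) to 1.21 (Ccdc153) with a median of 0.82, and control 3 was above the mean of the other controls by a median of 0.18. With Xist as a covariate in the fit all 15 stayed positive (log2 fold changes 0.33 to 1.21) with an unadjusted p under 0.05, but 0 passed the threshold (adjusted p 0.112 to 0.666). By the methods' t-test all 15 had an unadjusted p under 0.05 and 0 passed at an adjusted p under 0.05 (0.0624 to 0.298). At the looser adjusted threshold of the study 14 of them passed, all but Ccdc81. The study also asked for a change of more than 2-fold, which this count leaves out. By this adjusted threshold alone 15 of all Ccdc genes described were higher and 0 lower. Over all 21225 genes 301 were higher and 163 lower. The number that rose was 8 without RbpjkCNULL 2 and 8 without RbpjkCNULL 3, and 11 to 13 without any other single array. How many of all genes rose without these arrays was not counted, so these numbers have no background beside them. Ccdc153, Ccdc146, Ccdc17, Ccdc170, Ccdc113, Ccdc180, Ccdc189 and Ccdc181 passed whichever single array was left out, while Ccdc162, Ccdc150, Ccdc30, Ccdc78, Ccdc81, Ccdc87 and Ccdc187 did not in at least 1 case.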

How the data were processed

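Total RNA of 3 RbpjkCNULL and 3 control whole lungs at E18.5 was measured on 6 arrays. The deposited values are log2 expression levels, which the authors made from the scans with RMA (background correction, quantile normalization and summarisation) under R 2.12.0, with probes grouped by Entrez Gene. RMA damps differences of dim genes, and the table keeps no background or detection call. Genes were named from the platform annotation: 20239 of 21225 had 1 symbol, 0 had several and 986 had none.

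RbpjkCNULL was compared with control by limma 3.58.1 (lmFit and eBayes) under R 4.3.3 on all 21225 genes, without a filter, with Benjamini-Hochberg adjustment over all of them and a threshold of 0.05. Tests are two-sided. The fit was tested on simulated data. A gene was called without overlap when all 3 values of a group lay outside those of the other. Summed linear levels add 2 to the power of each log2 value. Genes were named in the text where they were called or did not overlap and were higher, where they were lower without overlap at an unadjusted p under 0.05, where they were among up to 4 with the largest change of a role list or the 3 with the highest level, or where they lay next to the threshold. The other genes lower without overlap, Ccdc63, Ccdc105, Ccdc14, Ccdc34, Ccdc18, Ccdc12 and the neighbours were named after their values were seen. The genes and lists were chosen with earlier results of these data known. The alternatives were the methods' t-test, other limma settings, other scalings, a filter, covariates, a replicate block and left-out arrays.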

Additional observations from a re-analysis of the deposited data

How the results depend on the processing

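The count of Ccdc genes that rose was 15, and under 17 alternatives it fell to 0 by the methods' t-test (before adjustment 25 were higher and 6 lower) and to 0 with Xist as a covariate (before adjustment 19 were higher and 1 lower), where the motile cilia genes also had 0. Leaving out single arrays gave 8 to 13. The count that fell was 0 under every alternative by limma. All 15 stayed positive under every alternative, except that the filter tested only 10 of them. Quantile normalization gave 4 lower without overlap, and a filter at the median of gene means, which kept 69 Ccdc genes, gave 18 higher and 4 lower without overlap. Leaving out single arrays gave 14 to 23 lower without overlap. Leaving out both arrays numbered 1, an alternative chosen after seeing the data, gave 29 lower. Fewer lungs per group make a lack of overlap more frequent. The shares over all genes under these alternatives were not counted, so these numbers have no background beside them.

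Whether the replicate numbers pair the lungs cannot be told from the labels. Deviations of lungs with the same number correlated at 0.491, 0.308 and -0.0872 for numbers 1, 2 and 3. The control lung that correlated best had the same number for RbpjkCNULL 1 and 2, while for RbpjkCNULL 3 it was control 2. With the number as a replicate block 17 Ccdc genes rose and 14 of the 15 passed, without Ccdc81, and Ccdc60, Ccdc96 and Ccdc148 passed as well. The share of all genes that rose with this block was not counted. No other Ccdc gene of the 128 gained a call under any alternative.

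Over the 128 genes the sign changed under at least 1 alternative in 57, of which 0 ever passed the threshold and the largest change was 0.22 in size. Among the genes the naming rule covers these were as follows. With the Xist covariate the log2 fold change was -0.0406 for Ccdc127, -0.0559 for Ccdc186, -0.00347 for Ccdc47, -0.0287 for Ccdc58, -0.0324 for Ccdc59 and -0.0259 for Ccdc91. With array lower quartiles as a covariate it was -0.115 for Ccdc127, -0.00848 for Ccdc47, -0.0511 for Ccdc58, -0.0357 for Ccdc59, 0.00999 for Ccdc85c and -0.0946 for Ccdc90b. Without both arrays numbered 1 it was 0.00843 for Ccdc115, -0.0131 for Ccdc127, -0.00057 for Ccdc58 and -0.000494 for Ccdc59. Leaving out single arrays it ran from -0.0827 to 0.0755 for Ccdc127, -0.0159 to 0.0347 for Ccdc47, -0.0461 to 0.103 for Ccdc58, -0.0404 to 0.114 for Ccdc59 and -0.0393 to 0.132 for Ccdc90b. The causes were not tested.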
